A study of Mus musculus with 4 samples.

Results

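Cytosolic ribosomal proteins are the protein components of the ribosomes that translate nuclear-encoded mRNA. They were taken here as all non-control probes of the array whose gene name consisted of Rps, Rpl or Rplp, a number and at most 1 further letter (a, x or l), which gave 79 of the 30038 gene names and 129 of the 41174 probes. All 79 matched a mouse gene in RefSeq, 1 of them under another current symbol (Rps3a, now Rps3a1). The study compared fetal and adult liver cells of C57BL/6NCr mice, with no treatment named in the labels. Total RNA of liver hepatoblasts at embryonic day 13 (E13, n = 2) and of liver hepatocytes from mice 8 weeks old (adult, n = 2) was labelled with Cy3 and hybridised to 4 one-colour Agilent arrays. Hepatoblasts are the fetal progenitors of hepatocytes and bile duct cells. The labels give neither the isolation of the cells nor whether separate animals were the source of the replicates. The p-values therefore reflect the spread of these samples alone, part or all of which may be technical.

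A ribosome joins a small subunit, which reads the mRNA, to a large subunit, which forms the peptide bonds. Each subunit is built on ribosomal RNA in the nucleolus, where the proteins are added in an ordered series of steps, and one copy of most proteins is used per ribosome. Their mRNAs are abundant and in mammals mostly begin with a run of pyrimidines, the 5′ terminal oligopyrimidine (TOP) tract, through which the kinase mTOR and the protein Larp1 control their translation. Cells that grow and divide make many ribosomes. In the fetal liver, hepatoblasts divide alongside blood-forming cells, whereas most adult hepatocytes are at rest.

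Levels are log2 of the scanner's processed signal minus the 75th percentile of the same array, so that a level of 1 is 2-fold above that percentile. A log2 fold is the adult mean minus the E13 mean, given with its standard error (SE), and a gene was called where the limma adjusted p (Benjamini-Hochberg over all genes tested) was under 0.05. Levels of different genes come from different probes, so a higher level of one gene than of another is not read as more mRNA. A gene was tested if a probe of it was well above background on each array of 1 group or of both. This held for 77 of the 79 genes, and all 77 were well above background on all 4 arrays. The 2 others were Rpl39l and Rpl3l. No spot was saturated, and the brightest ribosomal protein spot reached 45.1% of the saturation value. Across all genes tested, arrays of one group correlated at r = 0.991 (E13) and 0.989 (adult), and arrays of different groups at 0.727 to 0.742. The labels were checked against 2 liver genes. Afp, the fetal serum protein, had levels of 9.25 and 9.54 on the E13 arrays and -1.67 and -1.56 on the adult arrays, and Alb, serum albumin, 9.68 and 9.79 on the E13 arrays and 10.63 and 10.95 on the adult arrays.

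Ribosomal protein mRNAs were higher in E13 hepatoblasts. Of the 77 genes tested, 70 passed the threshold as higher in E13 hepatoblasts (limma, Benjamini-Hochberg), against 32.7% of all 16422 genes tested, and 47 of them by at least 2-fold, against 23.7%. Only Rps27l was called higher in adult hepatocytes, against 32.1% of all genes, and 6 genes were not called. The median log2 fold was -1.06, a 2.09-fold difference, with a range of -3.0 to 0.79, while the median of all genes tested was -0.0081. In 74 genes both E13 arrays lay above both adult arrays, against 43.1% of all genes, and in 1 gene both adult arrays lay above both E13 arrays, against 42.7%. The spread between arrays was small beside the median difference, the SD within a group being 0.079 (E13) and 0.086 (adult) on average over the 77 genes.

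**Figure D1:**
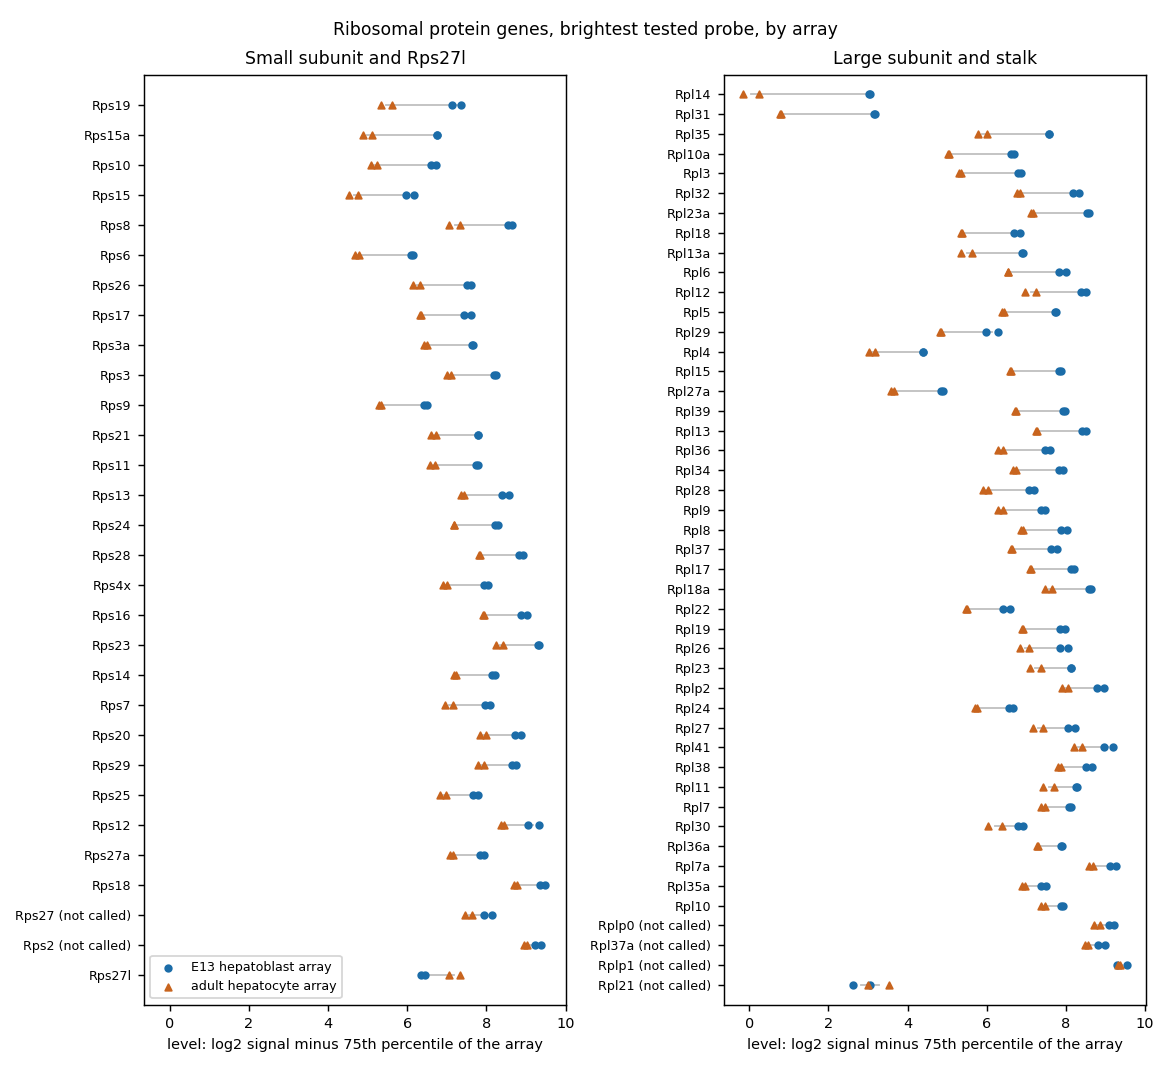
Level of the tested ribosomal protein genes, except 1 not reported here, on each array (horizontal axis, log2 signal minus the array's 75th percentile), with 2 E13 hepatoblast arrays (circles) and 2 adult hepatocyte arrays (triangles) per gene. Genes are ordered by log2 fold from the largest difference towards E13 at the top, with Rps27l and Rpl21 at the bottom, and a grey line joins the group means.

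These values are set against each array's own 75th percentile, and the median of the ribosomal protein genes stayed below 0 with each other scaling tried. With quantile normalization the median log2 fold of the ribosomal protein genes was -1.74 and that of all genes -0.12. Scaling to the 8 spike-in control probes gave a median of -2.30 against -1.24 over all genes, with 11272 genes called higher in E13 hepatoblasts and 2006 in adult hepatocytes in place of 5375 and 5272. This scaling moves the fold of every gene by the same amount, which turned 2 of the 77 genes, Rps27l and Rpl21. Normexp background correction gave a median of -1.25 against 0.21 over all genes, with 4527 and 6658 genes called. Taken relative to the median of all genes, the median of the ribosomal protein genes was -1.05 with the main scaling and with spike-in scaling, and -1.62 with quantile normalization.

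All 30 genes of the small subunit had both E13 arrays above both adult arrays, against 43.1% of all genes tested. Of these, 28 were called higher in E13 hepatoblasts, against 32.7% of all genes, 0 higher in adult hepatocytes, against 32.1%, and 2 neither. Their median log2 fold was -1.08, with a range of -1.78 to -0.30. Rps19, a protein of the subunit's head whose loss causes Diamond-Blackfan anaemia in people, had levels of 7.14 and 7.36 on the E13 arrays and 5.60 and 5.34 on the adult arrays. Its log2 fold was -1.78 ± 0.18 (SE; limma with Benjamini-Hochberg, adjusted p = 0.00139), the largest of the small subunit. Rps15a, a core protein of the subunit, had 6.76 and 6.75 on the E13 arrays and 4.87 and 5.10 on the adult arrays, a 3.39-fold difference. The E13 arrays of Rps19 and Rps15a thus lay more than 1 log2 unit above their adult arrays in each case.

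Rps6, the substrate of the S6 kinases downstream of mTOR, had levels of 6.15 and 6.09 on the E13 arrays and 4.68 and 4.77 on the adult arrays. Its log2 fold was -1.40 ± 0.14 (SE; limma with Benjamini-Hochberg, adjusted p = 0.00145). Rps3, at the mRNA entry site, had a log2 fold of -1.16. Differences were smaller in Rps27a (1.71-fold), which is made as a fusion to ubiquitin, and in Rps18 (1.60-fold), a head protein that touches the large subunit. Rps18 had 9.34 and 9.49 on the E13 arrays and 8.77 and 8.71 on the adult arrays, with no overlap. Its call was lost without E13 replicate 1 (log2 fold -0.75) or E13 replicate 2 (-0.60), and that of Rps27a without E13 replicate 2 (-0.71).

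The 2 uncalled genes of the small subunit were Rps27 and Rps2. Rps27, a zinc-finger protein, had 7.93 and 8.13 on the E13 arrays and 7.46 and 7.64 on the adult arrays. Its log2 fold was -0.48 ± 0.16 (SE; limma with Benjamini-Hochberg, adjusted p = 0.0551). Rps2, which lines the mRNA entry channel, had 9.22 and 9.37 on the E13 arrays and 9.03 and 8.95 on the adult arrays. Its log2 fold was -0.30 ± 0.15 (SE; limma with Benjamini-Hochberg, adjusted p = 0.14). In both genes the E13 arrays were the higher ones, by amounts that missed the threshold on these probes. For Rps2 the call depended on the probe. A dimmer Rps2 probe was called higher in E13 hepatoblasts at -0.71 (limma with Benjamini-Hochberg over all probes, adjusted p = 0.0151). Rps2 was also called so with the mean of its tested probes.

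Of the 43 genes of the large subunit, 41 were called higher in E13 hepatoblasts, against 32.7% of all genes, 0 higher in adult hepatocytes, against 32.1%, and 2 neither. Their median log2 fold was -1.08, with a range of -3.0 to 0.44. In 42 of them the E13 arrays lay above the adult arrays, against 43.1% of all genes. The median equalled that of the small subunit to 2 decimals. Rpl14, a protein of the subunit's surface, differed most, with levels of 3.02 and 3.06 on the E13 arrays and -0.16 and 0.25 on the adult arrays, a 7.98-fold difference. Rpl31, at the rim of the exit tunnel, followed with 3.14 and 3.19 on the E13 arrays and 0.78 and 0.80 on the adult arrays, a 5.19-fold difference. Their log2 folds were -3.0 ± 0.19 and -2.38 ± 0.14 (SE). Both stood apart from the other 41, whose largest difference was that of Rpl35. Both were also read from dim probes, with mean levels over all arrays of 1.54 (Rpl14) and 1.98 (Rpl31). These were the lowest mean levels of the tested ribosomal protein genes, and the median over their tested probes was 6.82. Differences were in general larger on dimmer probes, and the part of this in the folds of Rpl14 and Rpl31 was not tested.

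Rpl35, also at the exit tunnel, had 7.58 on both E13 arrays and 6.01 and 5.77 on the adult arrays, a 3.23-fold difference. Rpl10a, the protein of the L1 stalk, had 6.62 and 6.69 on the E13 arrays and 5.05 and 5.01 on the adult arrays, a 3.09-fold difference. Rpl3, which reaches towards the peptidyl transferase centre, differed by 2.83-fold and Rpl4, which lines the exit tunnel, by 2.44-fold. Each of these had E13 arrays well clear of the adult arrays.

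Rpl5 and Rpl11 enter the large subunit together with 5S ribosomal RNA and can also bind Mdm2, the regulator of p53. Rpl5 had 7.73 and 7.74 on the E13 arrays and 6.44 and 6.38 on the adult arrays, a log2 fold of -1.33 ± 0.14 (SE). Rpl11 had 8.25 and 8.29 on the E13 arrays and 7.43 and 7.69 on the adult arrays, a log2 fold of -0.71 ± 0.16 (SE). The difference of Rpl5 was 2.51-fold and that of Rpl11 1.64-fold, and the difference between them was not tested. The call of Rpl11 was lost without E13 replicate 1 (log2 fold -0.73) or E13 replicate 2 (-0.69). Rpl13a, used widely as a reference gene, had 6.90 and 6.89 on the E13 arrays and 5.35 and 5.63 on the adult arrays, a 2.65-fold difference. Its log2 fold was -1.41 ± 0.17 (SE; limma with Benjamini-Hochberg, adjusted p = 0.00228).

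The smallest called differences of the large subunit were those of Rpl10 (1.39-fold), which joins the subunit late, Rpl35a (1.42-fold) and Rpl7a (1.47-fold). The Rpl10 value came from a probe without a mapped position. Its other probe was at -0.41 and not called (limma with Benjamini-Hochberg over all probes, adjusted p = 0.0802). Rpl10 was also not called with the mean of its probes. Rpl10 and Rpl35a lost their call on leaving out any 1 of the 4 arrays (log2 folds of -0.52 to -0.43 and -0.56 to -0.45), and Rpl7a on leaving out either E13 array or adult replicate 2 (-0.63 to -0.48). Without E13 replicate 2, 52 genes of the 77 were called higher in E13 hepatoblasts, and without E13 replicate 1, 61. The 2 uncalled genes were Rpl37a and Rpl21. Rpl37a, a zinc-ribbon protein, had 8.81 and 8.98 on the E13 arrays and 8.56 and 8.49 on the adult arrays. Its log2 fold was -0.37 ± 0.15 (SE; limma with Benjamini-Hochberg, adjusted p = 0.089). Rpl21 had 2.62 and 3.04 on the E13 arrays and 3.53 and 3.01 on the adult arrays, which overlap.

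The stalk of the large subunit, which recruits the elongation factors, consists of Rplp0 and dimers of Rplp1 and Rplp2. Rplp2 was called higher in E13 hepatoblasts, with 8.80 and 8.95 on the E13 arrays and 7.90 and 8.05 on the adult arrays, a log2 fold of -0.90 ± 0.16 (SE; limma with Benjamini-Hochberg, adjusted p = 0.00717) that lost its call without E13 replicate 2 (-0.82). Its partner Rplp1 had 9.29 and 9.53 on the E13 arrays and 9.32 and 9.37 on the adult arrays, and the groups overlapped. The log2 fold of Rplp1 was -0.07 ± 0.16 (SE; limma with Benjamini-Hochberg, adjusted p = 0.728), and it was 0.051 without E13 replicate 2. Rplp0, the base of the stalk, had 9.08 and 9.22 on the E13 arrays and 8.70 and 8.87 on the adult arrays. It was not called on this probe, at a log2 fold of -0.37 ± 0.16 (SE; limma with Benjamini-Hochberg, adjusted p = 0.0943), and its other probes gave larger differences. Rplp0, Rpl37a, Rps2 and Rps27 were each called higher in E13 hepatoblasts with normexp correction, with quantile normalization and with spike-in scaling.

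Of the 77 genes, 37 carried more than 1 tested probe. Over single probes, 115 of the 124 tested were called higher in E13 hepatoblasts, against 32.8% of all 23463 probes tested, 1 was called higher in adult hepatocytes, against 30.8%, and 8 neither. In 0 genes were probes called in opposite directions. The size of the difference did depend on the probe. Of 47 probes dimmer than the brightest one of their gene, 38 had a fold further towards E13 hepatoblasts, with a median difference of -0.24, a comparison chosen after the data had been seen. Rplp0 and Rpl36a, a large subunit protein, are examples, and their probe sequences are shown because the log2 fold differed between their probes. The cause of this was not tested. The first 2 Rplp0 lines and the first Rpl36a line are whole probes in an open reading frame, while the other lines are 30 bases of a probe, with capitals for the polyadenylation hexamer.
Rplp0 probe 1: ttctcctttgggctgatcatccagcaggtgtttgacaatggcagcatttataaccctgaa
Rplp0 probe 2: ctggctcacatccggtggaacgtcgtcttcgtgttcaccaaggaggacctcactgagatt
Rplp0 probe 3: atttgagaaagatggaAATAAAggcttact
Rpl36a probe 1: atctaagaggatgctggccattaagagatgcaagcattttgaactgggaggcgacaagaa
Rpl36a probe 2: gacAATAAAatcttgacctttcaacccctt

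In the mm9 coordinates of the array files, Rplp0 probe 1 lay at chr5:116011423-116011482 and probe 3 at chr5:116013455-116013514, both on the plus strand, and probe 2 had no mapped position. Rplp0 probe 3, at the transcript's 3′ end, was the brightest probe and gave the log2 fold of -0.37. Probe 1 had 7.37 and 7.55 on the E13 arrays and 6.14 and 6.01 on the adult arrays, a log2 fold of -1.39 ± 0.16 (SE; limma with Benjamini-Hochberg over all probes, adjusted p = 0.00181). Probe 2 had 5.44 and 5.70 on the E13 arrays and 4.16 and 3.83 on the adult arrays, a log2 fold of -1.57 ± 0.20 (SE; adjusted p = 0.00234 by the same limma fit with Benjamini-Hochberg adjustment). The call of Rplp0 therefore depended on the probe, and with the mean of its probes its log2 fold was -1.11 and called.

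For Rpl36a the order was the other way. Its brightest probe, probe 1 in the coding part at chrX:131122046-131122105, had 7.87 and 7.90 on the E13 arrays and 7.29 and 7.26 on the adult arrays, a log2 fold of -0.61. Probe 2, at chrX:131122514-131122573, had 7.47 and 7.53 on the E13 arrays and 5.95 and 6.03 on the adult arrays, a log2 fold of -1.51, and another probe, which shares 40 bases with it, gave -1.43. All 3 were called higher in E13 hepatoblasts with all 4 arrays, and on probe 1 the call of the gene was lost without E13 replicate 1 (-0.63) or E13 replicate 2 (-0.59). Rpl21 changed direction between probes. Its brighter probe gave a log2 fold of 0.44 ± 0.26 (SE; limma with Benjamini-Hochberg over all probes, adjusted p = 0.195), and its dimmer one, with -0.47 and -0.40 on the E13 arrays and -2.76 and -2.43 on the adult arrays, gave -2.16 ± 0.18 (adjusted p = 0.000684 by the same limma fit). Under spike-in scaling the brighter probe was at -0.79. Rps4x, encoded on the X chromosome, had 1 probe at -1.03 and a dim probe at 0.28 that was not called.

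RefSeq lists 308 pseudogenes named after ribosomal proteins in the mouse, and a probe can bind the transcripts of such copies. Of the mapped probes, 2 lay on another chromosome than their gene. The Rps27 probe was placed on chromosome 9 while the gene lies on chromosome 3, and the Rps29 probe on chromosome 2 while the gene lies on chromosome 12. Both are the only tested probes of their genes. Their log2 folds were -0.48, not called, and -0.83, called higher in E13 hepatoblasts, and the part of other copies in these values was not tested. The call of Rps29 was lost without E13 replicate 2 (-0.78). Parts of both sequences are given so that the placement can be followed, the Rps29 probe whole and 30 bases of the Rps27 probe with the polyadenylation hexamer in capitals.
Rps29 probe: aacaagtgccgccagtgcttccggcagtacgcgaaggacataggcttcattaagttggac
Rps27 probe: accttcccAATAAAcacgttttggatatgt

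**Figure D2:**
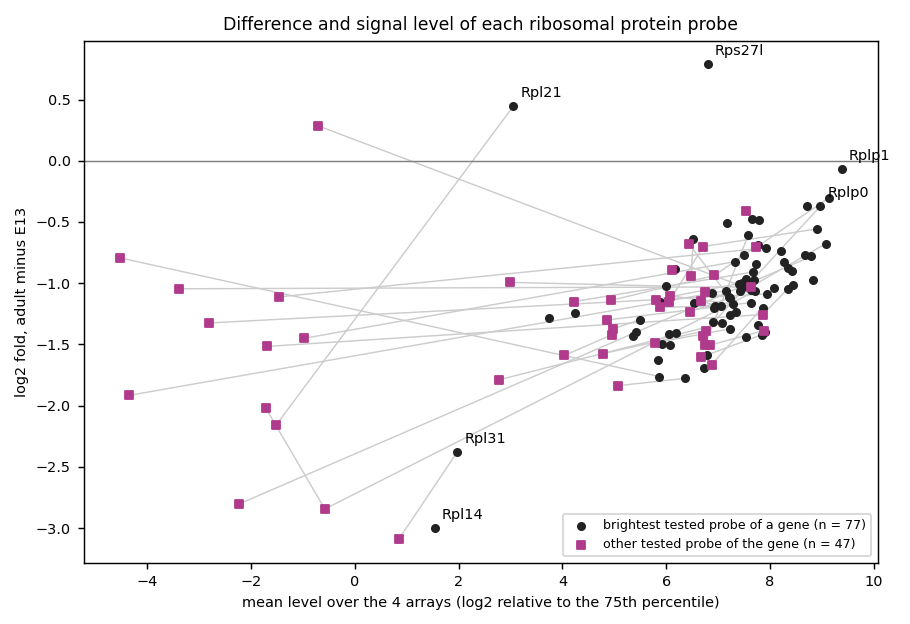
Log2 fold (vertical axis, adult minus E13) against the mean level over the 4 arrays (horizontal axis, log2) for each tested ribosomal protein probe, with lines joining probes of one gene. The 77 brightest probes are black circles and the 47 other tested probes magenta squares, and most of the latter lie lower than the black circle they are joined to.

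Among genes of the naming rule that end in l, which are paralogs of a ribosomal protein gene, 1 of 3 was tested. Rps27l, a copy of Rps27 that p53 can induce, was higher in adult hepatocytes. It had 6.36 and 6.45 on the E13 arrays and 7.05 and 7.34 on the adult arrays, which did not overlap, a log2 fold of 0.79 ± 0.17 (SE; limma with Benjamini-Hochberg, adjusted p = 0.0148). Spike-in scaling, which lowers the fold of every gene alike, put it at -0.45 and not called. The call was also lost without E13 replicate 1 (limma adjusted p = 0.0839 with Benjamini-Hochberg adjustment), without E13 replicate 2 (0.0651) and with quantile normalization (0.266). Rpl39l, a copy of the exit tunnel protein Rpl39 known from testis, and Rpl3l, a copy of Rpl3 known from striated muscle, were not well above background on any array. Their partners Rpl39 and Rpl3 were called higher in E13 hepatoblasts, by 2.35-fold and 2.83-fold.

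Whether a copy changed unlike its partner was asked from the log2 difference between the 2 genes within each array, for the 4 pairs with both genes tested. With 2 arrays against 2 the exact permutation test cannot go below p = 0.333, so none of these differences can pass a threshold. Rps27l minus Rps27 was -1.57 and -1.68 on the E13 arrays and -0.41 and -0.30 on the adult arrays, a change of 1.27 towards Rps27l in adult hepatocytes (two-sided exact permutation p = 0.333, 0.444 adjusted over the 4 pairs). Rpl22l1 minus Rpl22, the pair known for its roles in T cell development, changed by -0.71, from 0.74 and 0.63 on the E13 arrays to 0.09 and -0.13 on the adult arrays (two-sided exact permutation p = 0.333). Rpl36al minus Rpl36a changed by 0.54, with Rpl36al itself at a log2 fold of -0.07 and not called (two-sided exact permutation p = 0.333). With the other probes of Rpl36a this change was up to 1.44. These 3 pairs did not overlap between groups. Such an order is common here. Over all genes tested, both E13 arrays lay above both adult arrays in 43.1% and below them in 42.7%. Rpl7l1 minus Rpl7 did overlap, with a change of -0.10 (two-sided exact permutation p = 0.667). Over the 6 combinations of their probes the change of this pair lay between -0.10 and 1.03. The change of Rpl22l1 minus Rpl22 was -0.74 to -0.71 over its 2 combinations, and Rps27l and Rps27 have 1 tested probe each. These ranges over probes were added after the data had been seen.

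**Figure D3:**
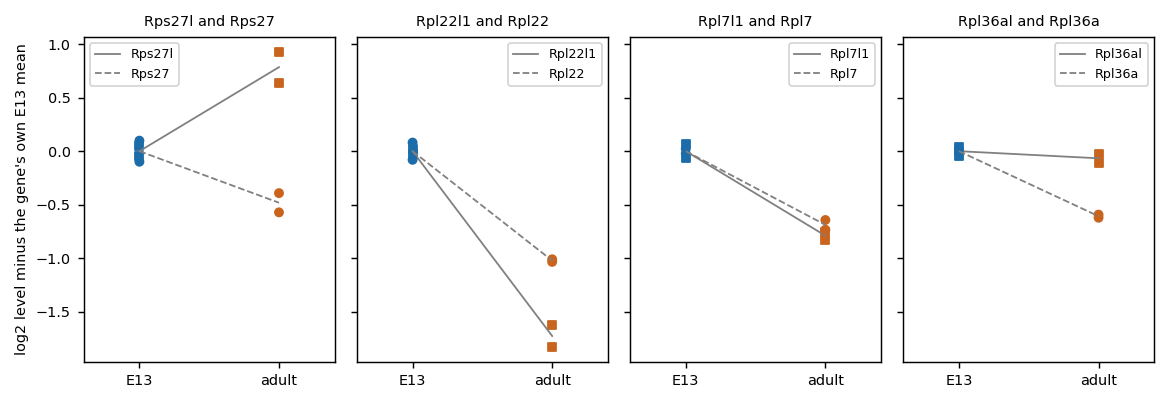
Level of 4 gene copies (squares, solid line) and of their partners (circles, dashed line) in E13 hepatoblasts and adult hepatocytes, each as log2 level minus the gene's own mean in E13 hepatoblasts, 2 arrays per group, with lines joining the group means. Rps27l rises by 0.79 while its partner Rps27 is 0.48 lower on this scale in adult hepatocytes, and with the brightest probe of each the lines of Rpl7l1 and Rpl7 lie close together.

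The start sites of the genes were compared with the TOP tract by which these mRNAs are known. RefSeq start-site windows (GRCm38.p6, from 250 bases before to 50 after the start) were at hand for 59 of the 79 genes, 71 windows in all. A C at the start followed by at least 4 pyrimidines stood in 18.3% of these windows, 13 in all, against 2.51% of the 32851 windows of all genes. Within 10 bases of the start it stood in 54.9%, against 30.7%. The sequences of 6 such starts are given from 10 bases before to 20 bases from the start, with capitals for the start base and the unbroken pyrimidines after it. They include Rpl14, Rpl35, Rps15a and Rps6 from the genes described above, the uncalled Rps27, and Rplp2 of the stalk.
Rpl14: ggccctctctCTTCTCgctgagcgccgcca
Rpl35: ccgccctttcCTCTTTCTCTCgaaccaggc
Rps15a: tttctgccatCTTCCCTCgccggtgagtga
Rps6: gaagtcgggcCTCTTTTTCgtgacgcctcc
Rps27: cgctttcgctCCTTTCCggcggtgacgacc
Rplp2: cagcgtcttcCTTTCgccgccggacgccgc

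The tract after the C was 10 pyrimidines long in Rpl35 and 4 in Rplp2. In these windows the starts lay at chr9:120571507-120571536 (Rpl14, plus strand), chr2:39005112-39005141 (Rpl35, minus), chr7:118116128-118116157 (Rps15a, minus), chr4:86857348-86857377 (Rps6, minus), chr3:90213629-90213658 (Rps27, minus) and chr7:141447641-141447670 (Rplp2, plus). The 13 tested genes with the tract exactly at the start had a median log2 fold of -1.16, and the 44 others with a window -1.05, a description without a test. Of motifs searched on both strands of the windows, CCGGAAG, the core bound by ETS factors such as Gabpa, was present in 36.6% of the ribosomal protein windows and 8.86% of all windows. AAGATGGC, the core bound by Yy1, was present in 9.86% and 2.75%, CTCTTTC, which can overlap the tract, in 29.6% and 8.16%, CTTTTC in 23.9% and 21.8%, and CACGTG, the E-box bound by Myc and Max, in 11.3% and 7.15%. TATAAA was present in 8.45% and 13.6%. A match says only that these letters are in the window.

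As a share of signal, ribosomal protein genes took 13.2% and 14.0% of the summed signal of all genes tested on the E13 arrays and 4.77% and 4.60% on the adult arrays, with 1 probe per gene. The means were 13.6% ± 0.56 and 4.68% ± 0.12 (SD, n = 2), a 2.91-fold difference with no overlap (two-sided exact permutation p = 0.333, the smallest that 2 against 2 can give). This measure, chosen after the data had been seen, does not depend on a constant scaling of an array, and it moves with every other abundant transcript as well. The median level of the 77 genes was 7.84 and 7.95 on the E13 arrays and 6.91 and 6.87 on the adult arrays.

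**Figure D4:**
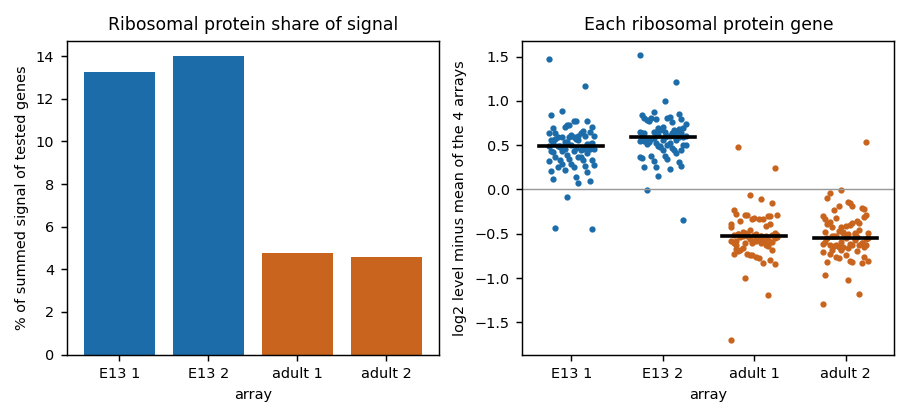
Left, the share of the summed signal of all genes tested that ribosomal protein genes held on each array (bars, percent), from 13.2% and 14.0% on the E13 arrays to 4.77% and 4.60% on the adult arrays. Right, the level of each of the 77 genes on each array as log2 level minus the gene's own mean over the 4 arrays (points), with the median of the genes as a black line.

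Genes of ribosome assembly were counted in 4 lists, to be read beside the 32.7% of all genes called higher in E13 hepatoblasts and the 32.1% called higher in adult hepatocytes. Of 42 genes of ribosomal RNA processing and small subunit assembly, 30 (71.4%) were called higher in E13 hepatoblasts, 1 higher in adult hepatocytes and 11 neither, with a median log2 fold of -0.97. Nop56, a core protein of the box C/D particles that methylate ribosomal RNA, had 4.94 and 5.02 on the E13 arrays and 2.61 and 2.62 on the adult arrays, a log2 fold of -2.37. Gar1, of the box H/ACA particles that make pseudouridine, was at -2.30 and nucleophosmin, Npm1, at -2.26, while Rcl1, a processing factor, was called higher in adult hepatocytes at 1.01. Of 40 genes of large subunit assembly and export, 23 (57.5%) were called higher in E13 hepatoblasts, 1 higher in adult hepatocytes and 16 neither, with a median of -0.65. Rrp1b (-2.65), Mdn1 (-2.36), the remodelling ATPase of pre-60S particles, and Ppan (-1.97) led, and Sbds, which helps to release Eif6 from the new subunit, was called higher in adult hepatocytes at 1.05. Of 21 genes of RNA polymerase I and its factors, which make the ribosomal RNA, 11 (52.4%) were called higher in E13 hepatoblasts, 1 higher in adult hepatocytes and 9 neither, with a median of -0.56. Taf1d (-1.94), Cd3eap (-1.74) and Taf1c (-1.71) led, and Polr2l, a subunit shared by all 3 nuclear polymerases, was called the other way at 1.19. Of 14 chaperones and import receptors of ribosomal proteins, 9 (64.3%) were called higher in E13 hepatoblasts, 1 higher in adult hepatocytes (Bccip, 0.58) and 4 neither, with a median of -0.69, and Nap1l1 (-1.95), Grwd1 (-1.68) and Kpnb1 (-1.52) led.

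Of 7 core ribosome genes with other names that were tested, 4 (57.1%) were called higher in E13 hepatoblasts, 0 higher in adult hepatocytes and 3 neither, with a median of -0.79. Rpl22l1 (-1.73), Rpsa (-1.24), a small subunit protein, and Gnb2l1 (-0.90), the scaffold now called Rack1, led. Fau, which is made as a fusion to a ubiquitin-like protein, was not called, at -0.34, with 8.76 and 8.86 on the E13 arrays and 8.49 and 8.46 on the adult arrays.

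Of 34 translation initiation factors, 13 (38.2%, near the 32.7% of all genes) were called higher in E13 hepatoblasts, 2 higher in adult hepatocytes and 19 neither, with a median of -0.36. Eif4a1, the helicase of the cap complex, was at -1.39 and its paralog Eif4a2 at 1.10, and both were called. Eif3d (-1.17) and Eif2s2 (-1.15) followed Eif4a1. Of 18 elongation and termination factors, 9 (50%) were called higher in E13 hepatoblasts, 3 higher in adult hepatocytes and 6 neither, with a median of -0.41. Gspt2 was at least 3.88-fold higher in E13 hepatoblasts (limma with Benjamini-Hochberg, adjusted p = 0.000864) and well above background on 0 of the 2 adult arrays. It was thus tested only through the group where it is higher, so its direction was largely set by the filter. Eef1g (-1.65) and Eef1e1 (-1.42) were called higher in E13 hepatoblasts and the ribosome rescue factor Hbs1l (1.39) in adult hepatocytes. Eef1a1, whose mRNA also begins with a TOP tract, was at -0.0049 and not called. Of 23 genes that control the transcription or translation of ribosomal protein mRNAs, 8 (34.8%, near the 32.7% of all genes) were called higher in E13 hepatoblasts, 2 higher in adult hepatocytes and 13 neither, with a median of -0.03. Mycn (-4.30) and Myc (-3.79), transcription factors known to raise ribosome synthesis, and the S6-family kinase Rps6ka3 (-3.54) had the largest folds towards E13 hepatoblasts, and Larp1b (2.59) the largest towards adult hepatocytes. Mycn was well above background on 1 of the 2 adult arrays, so it was likewise tested only through the E13 arrays. Medians and counts of these lists describe them and were not tested as sets.

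**Figure D5:**
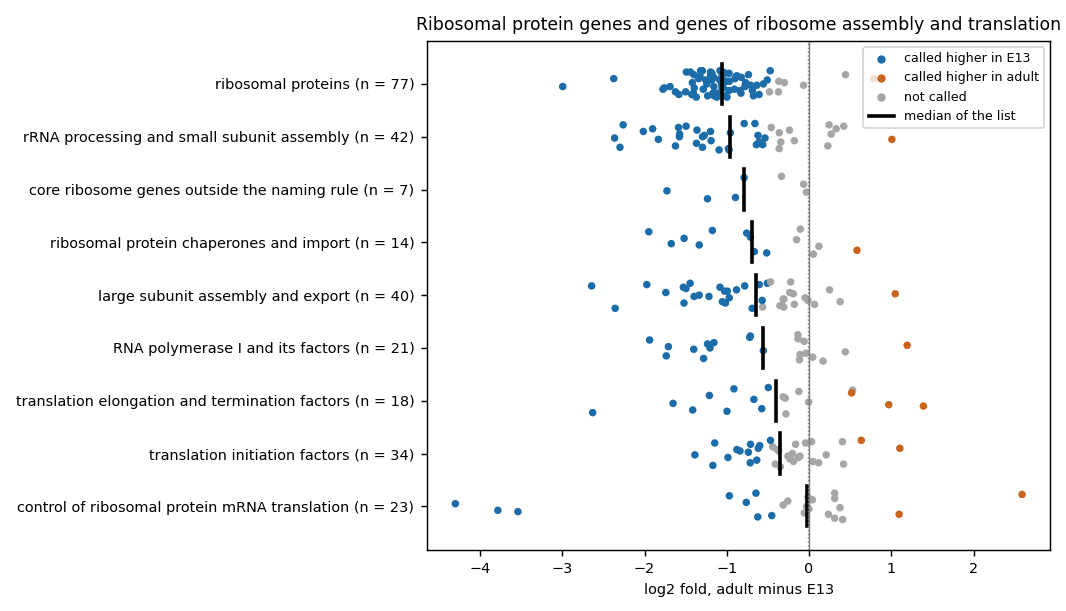
Log2 fold (horizontal axis, adult minus E13) of each tested ribosomal protein gene and of each gene of 8 lists of ribosome assembly, translation and its control, 1 point per gene. Blue points were called higher in E13 hepatoblasts, orange points higher in adult hepatocytes and grey points neither, black bars are list medians, and the dotted line is the median of all genes tested. The medians run from -1.06 for the ribosomal proteins to -0.03 for the control genes.

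The samples were bulk RNA, in which fewer cells of a type and less RNA per cell cannot be told apart, and markers of dividing and of other cells differed between the groups as well. Levels of a marker list were summed on the linear scale, as multiples of the 75th percentile. Of 12 proliferation markers, 12 were well above background on both E13 arrays and 8 on both adult arrays (not Top2a, Ccnb1, Cdk1 or Aurkb on either), with sums of 222 and 209 on the E13 arrays and 8.28 and 9.73 on the adult arrays. Of 13 erythroid markers, 10 and 6 were, with sums of 210 and 51.0 on the E13 arrays and 29.5 and 21.8 on the adult arrays, and Hbb-bh1, Hbb-y, Hba-x, Epb4.2 and Ahsp were among the markers well above background on 0 of the 2 adult arrays. Of the 10 tested, 6 were called higher in E13 hepatoblasts, against 32.7% of all genes tested, and 1 in adult hepatocytes, against 32.1%. Ahsp and Gata1, among those 6, were tested only through the E13 arrays. The 1 was Alas2, the first enzyme of heme synthesis in erythroid cells. Its adult levels of 4.69 and 4.34 made up most of the adult sum (0.76 and -0.97 on the E13 arrays). Stellate and mesenchymal markers (7 and 3 of 8) summed to 66.9 and 60.2 on the E13 arrays and 8.73 and 7.76 on the adult arrays, where Des, Pdgfrb, Col1a1 and Pdgfra were not well above background. Reln, with levels of 5.27 and 5.20, made up most of the E13 sums and Acta2, with 3.0 and 2.76, most of the adult sums, and the E13 arrays differed in Col1a1 (2.53 and 1.18) and Col3a1 (2.77 and 1.29). Megakaryocyte markers (6 and 2 of 6) summed to 33.7 and 18.3 against 0.41 and 0.38. Macrophage markers (6 and 9 of 10) summed to 2.17 and 1.04 on the E13 arrays, where Clec4f and Vsig4 were not well above background, and to 7.92 and 6.93 on the adult arrays, and endothelial markers (4 and 5 of 8) to 1.97 and 0.64 against 8.37 and 8.59. Other blood cell markers (5 and 1 of 9) summed to 1.37 and 0.76 against 1.54 and 1.07, and bile duct markers (3 and 3 of 6) to 0.68 and 0.60 against 2.47 and 3.99. Hepatoblast markers (8 and 4 of 8) summed to 1920 and 2261 on the E13 arrays and 15.5 and 18.5 on the adult arrays, where Igf2, Gpc3 and Lin28b were not well above background. Hepatocyte markers (8 and 10 of 10) summed to 971 and 1025 on the E13 arrays, where Cyp2e1 and Tdo2 were not well above background, and to 2792 and 3215 on the adult arrays. The part of dividing cells and of other cell types in the ribosomal protein difference was not tested.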

How the data were processed

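The processed intensity of each spot came, per the file headers, from Agilent Feature Extraction 10.7.3.1, by subtracting a spatial detrend surface (equal to the subtracted background at 100% of spots) and by multiplicative detrending, with surrogate values for dim spots and no scaling between arrays. All 4 arrays lay on 1 slide with 1 scan time, so no batch block was possible. The deposited log2 values of the authors' table equal the log2 processed intensity minus a constant per array, close to the 75th percentile, with the same direction. Other upstream steps are not given in the sources used here.

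Replicate spots of a probe were averaged as log2, less the 75th percentile of all probes on that array, without the 1639 control spots and 18 probes marked as outliers. A gene was represented by its brightest probe well above background on both arrays of at least 1 group. Groups, taken from the labels, were compared with limma 3.58.1 in R 4.3.3 (lmFit, then eBayes, with degrees of freedom of 2 residual and 2.54 prior), with Benjamini-Hochberg adjustment over 16422 genes, and the fit was tested on simulated data. In the first such test, where few genes differed, the folds were recovered but none of these genes was called. The test was then altered to spread the folds of the other genes as in the data, and most of the genes were called. The median SE of a log2 fold was 0.18, a precision limited by the small number of arrays. The members and all gene lists were chosen with earlier results of these data known. Named were the 6 called genes with the largest fold in each direction (1 for adult hepatocytes), every uncalled gene, the copies ending in l, the anchors Rps6, Rplp0, Rpl13a, Rps18, Rpl5 and Rpl11, and per list the 3 largest folds in its main direction and the largest in the other. Some genes are not reported here by name. Further names (such as Rpl36a, Rps4x, Rps29, Eef1a1) were chosen after their values were seen. Rps27a and Rps3a, which match the naming rule, were taken out of the list of core ribosome genes with other names. Probe coordinates are mm9, and start-site windows and names are from RefSeq GRCm38.p6.

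Alternatives covered normexp (offset 50), quantile, spike-in and other scalings, the deposited values, the filters on dim probes, the probe per gene, eBayes with trend and robust, stricter thresholds, each array left out, and replicate blocks. The dimmest-probe and crossed-block alternatives were added after the data had been seen.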

Additional observations from a re-analysis of the deposited data

How the results depend on the processing

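The count of 70 ribosomal protein genes called higher in E13 hepatoblasts lay between 47 (at least 2-fold required) and 76 (spike-in scaling) over the alternatives, and it was 58 at an adjusted p under 0.01. It was 52 to 67 on leaving out 1 array, where the array left alone in its group is assumed to vary like the other group. The median log2 fold of -1.06 moved to -1.25 with normexp correction, -1.74 with quantile normalization, -1.74 with both, -2.30 with spike-in scaling, -1.15 with the mean of the tested probes and -1.15 with the dimmest probe, and it was -1.10 to -1.01 on leaving out 1 array. The 1 gene called higher in adult hepatocytes, Rps27l, became 0 with spike-in scaling, with quantile normalization alone or after normexp, at an adjusted p under 0.01 and with 2-fold required, 0 to 1 on leaving out 1 array, and 3 with no filter on dim probes. That count of 3 takes in Rpl39l and Rpl3l, which were not well above background on any array. Spike-in scaling, which shifts every gene alike, turned Rps27l (-0.45) and Rpl21 (-0.79). Another choice of probe turned Rpl21 (-0.86 with the mean of its probes, -2.16 with its dimmest probe) and Rps4x (0.28 with its dimmest probe, not called); the cause was not tested. Rplp1, not called, was at -0.19 to 0.051 on leaving out 1 array, above 0 without E13 replicate 2. Of the other alternatives for 36 named genes, 581 kept direction and side of the threshold, 30 passed it and 67 no longer did. The replicate numbers do not pair the samples (correlation of deviations of same-numbered arrays -0.16 over all genes). With the replicate block 65 genes were called higher in E13 hepatoblasts (Rpl10, Rpl30, Rpl35a, Rpl36a and Rpl7a lost their call), 1 higher in adult hepatocytes, and the median was -1.06; a crossed pairing gave 67 and 1.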

Other observations

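Within the 77 ribosomal protein genes, the difference was smaller the brighter the probe. Over the genes, log2 fold and mean level had a Pearson r of 0.50 and a Spearman rho of 0.59, a description across genes of the same 4 arrays. Without Rps27l, the 13 genes with a mean level under 6 had a median log2 fold of -1.40, and the 13 genes from 8 to 9 one of -0.83. In the other genes of the array the log2 fold also moved towards adult hepatocytes at higher levels. Their median was -0.01 under 6 (n = 15966) and 1.12 from 8 to 9 (n = 40). Among the 12 ribosomal protein probes with a mean level under 0, 11 were called higher in E13 hepatoblasts, against 32.8% of all probes tested, with a median of -1.48. Those of Rpl37, Rps13, Rps15a and Rps18 were well above background on the 2 E13 arrays only. That of Rps12 was so on 3 of the 4 arrays, with its lowest level, -4.51, on adult replicate 2. The probes of these genes were thus tested only through the group where they are higher, so their direction was largely set by the filter. The count of 11 and the median include them. The level ranges were chosen after the data had been seen.

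The sequence of the probes varied with the difference as well. The 20 tested probes that contain AATAAA or ATTAAA, the polyadenylation hexamers, had a median log2 fold of -0.84 and a median level of 7.57, and the 104 others had -1.18 and 6.78. The grouping was chosen after the data had been seen and the difference was not tested. Rps27l, on chr9:66795486-66797176 in mm9 with a probe that spans an intron, was the only gene of the naming rule called higher in adult hepatocytes with the main scaling.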
